A study of Mus musculus with 13 samples.

Results

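The HoxB cluster is the row of homeobox genes Hoxb1 to Hoxb9 and Hoxb13 on mouse chromosome 11, and it was examined for the repressive histone mark H3K27me3 in fibroblasts expressing mutant histone H3. All peaks that overlapped chr11:96000000-96260000 (mm9), a stretch of 260 kb with Hoxb13 towards its low-coordinate end and Hoxb1 towards its high-coordinate end, were taken. This gave 3 peaks of 2245 in all: 2 of the 1192 peaks in H3.3K27M cells and 1 of the 1053 peaks in H3.1K27M cells. Mouse embryonic fibroblasts were transduced with lentivirus for stable expression of histone H3.3 or H3.1 in which lysine 27 is replaced by methionine (K27M), and chromatin cut with micrococcal nuclease was precipitated with an H3K27me3 antibody. The 2 groups used here are H3K27me3 in cells expressing H3.3K27M and H3K27me3 in cells expressing H3.1K27M, each with 2 replicate samples that share a single deposited peak list. Both groups therefore carry a K27M transgene, and no source used here names the promoter that drives it or the strain of the embryos. The study also describes EZH2 and combined FLAG and EZH2 precipitations, K27R mutants and an empty-vector control, 13 samples in 11 groups in all, and these other samples were not analysed here. Peak lists hold no expression values, so the labelled cell type could not be checked against marker genes.

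HOX proteins are transcription factors that give cells along the head-to-tail axis their regional identity. Genes at the Hoxb1 end of the row act early and far forward, and genes towards the Hoxb13 end act later and further back. Polycomb repressive complex PRC2, whose catalytic subunit is EZH2, places H3K27me3 over Hox genes that are to stay silent, and it spreads the mark along the chromatin into broad domains. Histone H3 with K27M inhibits PRC2, and the title of the study puts these mutants in the question of how the mark spreads. H3.1 is built into chromatin mainly as DNA is copied, whereas H3.3 is built in throughout the cell cycle.

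In the RefSeq annotation of the later assembly GRCm38.p6, used for names and order only, the 10 genes run by start in the order Hoxb13, Hoxb9, Hoxb8, Hoxb7, Hoxb6, Hoxb5, Hoxb3, Hoxb4, Hoxb2, Hoxb1. Hoxb13 is a gene of the tail and hindgut region, and Hoxb9, Hoxb8, Hoxb7 and Hoxb6 pattern the trunk. Hoxb5, Hoxb4 and Hoxb3 act at the level of the neck and hindbrain. Hoxb2 and Hoxb1 act in the hindbrain, where Hoxb1 sets the identity of the segment that forms the facial motor neurons. The nearest protein-coding neighbours outside the row were Ttll6, which encodes a tubulin-modifying enzyme, next to Hoxb13, and Skap1, which encodes an adaptor protein of T cells, next to Hoxb1. The row also holds 2 microRNA genes, Mir196a-1 between Hoxb13 and Hoxb9 and Mir10a beside Hoxb4. The deposited peaks are on mm9 and no mm9 annotation was used, so no peak could be assigned to a gene, and positions are given along the stretch instead.

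Sequences are shown for the members that RefSeq's promoter table held, 3 of the 10 genes, because PRC2 is known to gather at DNA rich in the dinucleotide CG. Each promoter covers 250 bases before to 50 bases after the annotated start on the plus strand of GRCm38.p6, whose coordinates cannot be set against the mm9 peaks. Hoxb8 lies at chr11:96281655-96281954, Hoxb4 at chr11:96318017-96318316 and Hoxb1 at chr11:96365508-96365807 on that build. Every CG is in capitals.
Hoxb8: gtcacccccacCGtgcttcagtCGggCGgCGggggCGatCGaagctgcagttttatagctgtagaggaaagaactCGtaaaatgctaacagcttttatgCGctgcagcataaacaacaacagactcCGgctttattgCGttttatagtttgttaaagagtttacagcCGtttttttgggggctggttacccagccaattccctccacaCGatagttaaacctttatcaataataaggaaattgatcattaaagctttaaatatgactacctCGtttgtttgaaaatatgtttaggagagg
Hoxb4: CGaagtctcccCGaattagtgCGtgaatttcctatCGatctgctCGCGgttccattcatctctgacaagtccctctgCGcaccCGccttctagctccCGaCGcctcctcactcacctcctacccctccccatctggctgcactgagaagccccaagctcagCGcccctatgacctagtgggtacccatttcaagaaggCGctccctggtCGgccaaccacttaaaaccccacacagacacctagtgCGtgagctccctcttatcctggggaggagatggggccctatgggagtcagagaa
Hoxb1: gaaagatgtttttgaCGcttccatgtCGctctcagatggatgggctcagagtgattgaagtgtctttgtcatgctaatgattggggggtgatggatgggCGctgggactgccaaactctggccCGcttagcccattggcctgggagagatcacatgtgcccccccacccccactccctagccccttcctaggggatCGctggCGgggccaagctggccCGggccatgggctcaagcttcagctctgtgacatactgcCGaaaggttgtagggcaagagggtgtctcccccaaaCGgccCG

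The 3 promoters differed more in the ratio of observed to expected CG than in the number of CG. The numbers for Hoxb8, Hoxb4 and Hoxb1 were higher than in 62.1%, 63.7% and 56.5% of all promoters. The Hoxb8 promoter had 13 CG in a sequence of 42.3% G and C, a ratio of observed to expected CG of 0.97. This ratio was higher than in 92.3% of the 32851 promoters of the table. The Hoxb4 promoter had 14 CG at 58% G and C and a ratio of 0.59, higher than in 63.7% of promoters. The Hoxb1 promoter had 10 CG at 59.3% G and C and a ratio of 0.38, equal to the median of all promoters, 0.38. At least 1 CG, which reads the same on both strands, was found in 94.6% of all promoters, and a ratio of 0.6 or more in 35.8%. Among the promoters of 19 genes of the HoxA, HoxC and HoxD clusters in the table (21 promoters), the ratio ran between 0.26 and 1.02 with a median of 0.66. With 3 of 10 members present, the check of CG content over the row is void.

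The mature microRNAs of the row are shown with the seed, bases 2 to 8, in capitals, since their targets include Hox messages: miR-196a is known to direct cleavage of the Hoxb8 message.
miR-196a-5p (Mir196a-1, GRCm38.p6 chr11:96265187-96265208, plus strand): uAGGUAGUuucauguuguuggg
miR-10a-5p (Mir10a, GRCm38.p6 chr11:96317186-96317208, plus strand): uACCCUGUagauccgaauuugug
The 2 microRNAs do not share a seed. The mature miR-196a-5p of Mir196a-2, on chromosome 15, has the same sequence as that of Mir196a-1.

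H3K27me3 was called at the HoxB cluster in both mutants, in a domain shared by both lists near the Hoxb13 end and in a second domain that was in the H3.3K27M list alone. In H3.3K27M cells the first peak ran over chr11:96022801-96076399, with a width of 53.6 kb. The second H3.3K27M peak ran over chr11:96106601-96145199, with a width of 38.6 kb. In H3.1K27M cells the only peak of the stretch ran over chr11:96024201-96070399, with a width of 46.2 kb. The remaining 115 kb at the Hoxb1 end, 44.2% of the stretch, held no peak in either list. Each list stands for its group without a spread between replicates, so no test between the mutants was possible. The depth of the libraries and the threshold of the peak caller are unknown, so a missing peak was not read as absence of the mark, nor can fewer cells with the mark and less mark per cell be told apart.

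**Figure D1:**
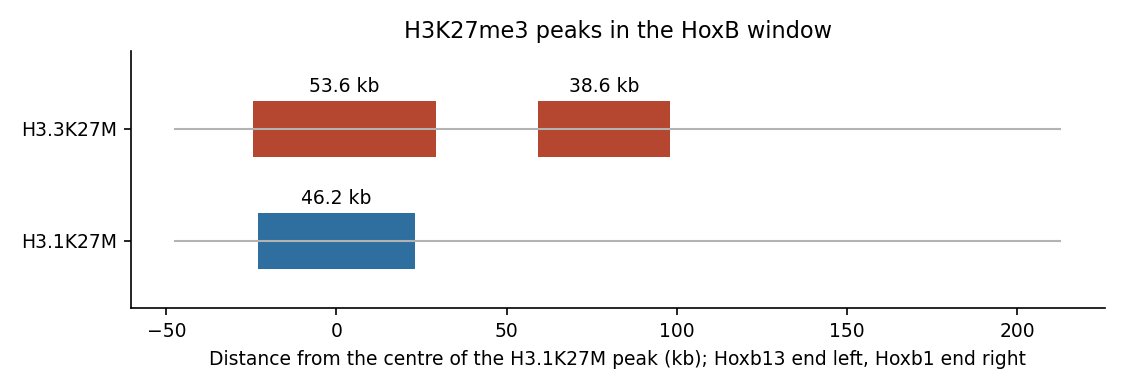
Peaks of H3K27me3 in the HoxB stretch in H3.3K27M cells (top) and H3.1K27M cells (bottom). The x axis gives the distance in kb from the centre of the H3.1K27M peak, the grey line is the stretch examined, and the bars are peaks to scale with their widths; the 38.6 kb bar has no counterpart in H3.1K27M cells.

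The peaks covered 92.2 kb in H3.3K27M cells (2 peaks, mean width 46.1 kb) and 46.2 kb in H3.1K27M cells (1 peak). The covered length in H3.3K27M cells was thus 2.0 times that in H3.1K27M cells, or 1.0 on the log2 scale. Over all peaks of the lists this ratio was 1.36 (11.9 Mb in H3.3K27M cells and 8.75 Mb in H3.1K27M cells), and dividing by it left 1.47 at HoxB. Peaks occupied 35.5% of the stretch in H3.3K27M cells and 17.8% in H3.1K27M cells. The HoxB peaks made up 0.777% of all H3.3K27M covered length and 0.528% of all H3.1K27M covered length. The sequence common to both lists was 46.2 kb, which is 50.1% of the H3.3K27M length and 100% of the H3.1K27M length, so the H3.1K27M peak lay wholly inside an H3.3K27M peak.

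The shared domain near the Hoxb13 end was among the widest of either list. It ranked 7 of 1192 by width in H3.3K27M cells and 5 of 1053 in H3.1K27M cells, where 3 peaks had this same width. On chromosome 11 it was the widest peak of both lists, with 103 peaks in H3.3K27M cells and 86 in H3.1K27M cells. It was 7.45 times the median width of the H3.3K27M list (7.2 kb) and 8.25 times that of the H3.1K27M list (5.6 kb).

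**Figure D2:**
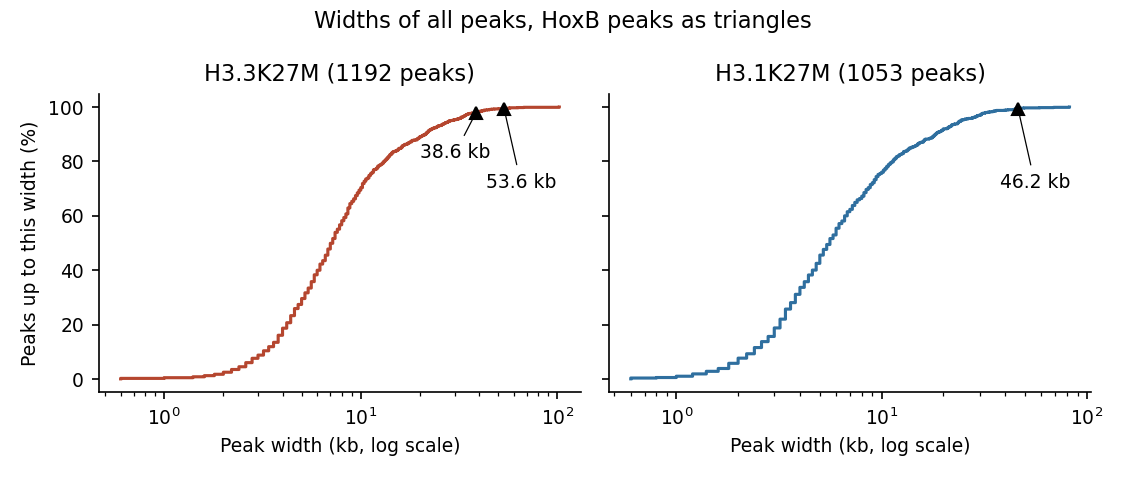
Cumulative share of peaks (y axis, percent) up to a given width (x axis, kb, log scale) in H3.3K27M cells (left) and H3.1K27M cells (right). Triangles mark the HoxB peaks of 53.6, 38.6 and 46.2 kb, and all 3 lie in the top few percent of their list.

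The edges of the shared domain were not moved alike. The H3.3K27M peak reached 1.4 kb beyond the H3.1K27M peak on the side away from Hoxb1 and 6.0 kb beyond it on the side towards Hoxb1. In the 807 regions that held a single peak of each list, the median reach at the low-coordinate edge was 0.8 kb, and 64.3% of regions were below the HoxB value. At the high-coordinate edge the median was also 0.8 kb, and 97.1% were below the HoxB value, with 23 regions at or above it. These shares compare reaches in kb over regions of all widths. Whether the HoxB reach is large for a domain of its width was not tested. Among the other Hox clusters, the reach at the high-coordinate edge was larger at HoxC than at HoxB. It was smaller in the HoxA regions, at 0.8 kb and 3.6 kb, but HoxA runs the other way, so this edge faces group 13 there. At the low-coordinate edges of the HoxA regions, which face away from group 13, the reaches were -6.4 kb and 3.4 kb. At HoxD the reach at the high-coordinate edge was -14.6 kb. A negative reach means that the H3.1K27M peak reached further. Both HoxB reaches exceed the 200 bp grid on which the peak starts lie.

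The width ratio of the shared HoxB domain lay within the range of other broad domains. The H3.3K27M peak was 1.16 times as wide as the H3.1K27M peak, a log2 ratio of 0.21, against a median of 0.33 (SD 0.60) over the 807 regions. The H3.3K27M peak was the wider in 77.7% of those regions (exact 95% interval 74.7 to 80.5%). Among the 30 regions whose 2 widths averaged 30 kb or more, the median log2 ratio was 0.17 with a range of -0.50 to 0.58, and HoxB ranked 12 from the highest. On chromosome 11, 74 regions had a median of 0.21, and HoxB ranked 37. The nearest regions outside the stretch were shared and narrower: chr11:95772201-95786199, with 14.0 kb in H3.3K27M cells and 6.2 kb in H3.1K27M cells (ratio 2.26), and chr11:96873001-96885799, with 12.8 kb in H3.3K27M cells and 7.2 kb in H3.1K27M cells (ratio 1.78). Both flanking ratios were larger than the ratio of the shared HoxB domain.

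The second domain, towards the middle of the stretch, was called in H3.3K27M cells only. The 2 HoxB regions were thus 1 shared region and 1 region of the H3.3K27M list alone. Over all 1383 regions, 60.1% were shared (exact 95% Clopper-Pearson interval 57.5 to 62.7%). A further 25.6% were in the H3.3K27M list alone (23.3 to 28%). These intervals cover counting error only. With 2 regions, no departure of HoxB from these shares can be read. At the far end of chromosome 7, from chr7:144512401 to chr7:152087999, every region called was in the H3.3K27M list alone, up to 12300 kb from a shared region. These regions enter the 25.6% and the ratio of 1.36 over all peaks, and why the H3.1K27M list is empty there was not tested. The second HoxB domain ran between 41% and 55.8% of the way through the stretch, counted from the Hoxb13 end. It began 30.2 kb after the end of the shared H3.3K27M peak. From the H3.1K27M peak to the next H3.1K27M peak the distance was 806 kb, and the second H3.3K27M domain lies inside that space. The running numbers of the peaks were consecutive here, 177 to 180 in the H3.3K27M list and 129 to 131 in the H3.1K27M list, so no number left unused by the authors falls in the stretch.

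Among the 354 regions of the H3.3K27M list alone the HoxB domain was the widest, at 38.6 kb against a median of 5 kb. The next widths were 38 kb, 36.6 kb and 22.6 kb, so the first 3 lay close together. When peaks had to overlap each other by 50% of their widths to count as shared, in place of 1 bp, the HoxB domain ranked 4 and was no longer the widest. Of the 831 shared regions, 23 covered more than this in H3.3K27M cells. The widest region of the H3.1K27M list alone, of 198, had 22.6 kb. On chromosome 11, 29 regions were in the H3.3K27M list alone, with a median of 6 kb, and the widest of them outside HoxB had 10.6 kb.

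The HoxB domain lay 30.2 kb from the shared HoxB domain. Both were taken because they overlap the same stretch of 260 kb, so a short distance was largely set by that choice. For regions of the H3.3K27M list alone the median distance to a shared region was 622 kb, and 35 of them (9.89%) lay as near or nearer. In all, 44 of the 354 lay within 50 kb of a shared region, with a median width of 5.1 kb, and the widest of these outside HoxB had 12.2 kb. The other domains above 30 kb among the 354 lay 1550 kb (38 kb wide) and 244 kb (36.6 kb wide) from a shared region.

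**Figure D3:**
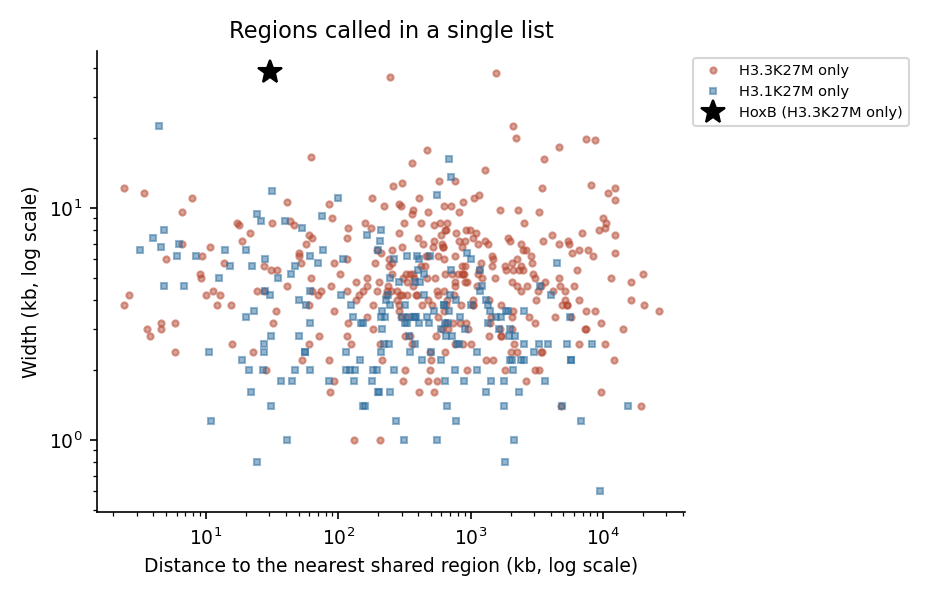
Width (y axis, kb, log scale) against distance to the nearest shared region (x axis, kb, log scale) for regions called in the H3.3K27M list only (red circles) or the H3.1K27M list only (blue squares). The star is the HoxB domain, with 38.6 kb of width at a distance of 30.2 kb, above all other regions at that distance or nearer.

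The HoxB stretch was also set beside stretches of the same length over the genome, each centred on a region of either list outside the 4 Hox clusters. Neighbouring stretches share peaks and are not independent. The H3.3K27M length exceeded the H3.1K27M length by 46 kb at HoxB, and in 1376 other stretches the median difference was 2.6 kb with a range of -37.8 to 48.4 kb. A single stretch had a difference as large or larger, on chromosome 17, with 92.6 kb in H3.3K27M cells and 44.2 kb in H3.1K27M cells. The ratio was less uncommon than the difference: of 982 stretches with peaks of both lists, 141 (14.4%) had a ratio of 2.0 or more. Where the H3.1K27M peaks covered at least 30 kb, 1 of 147 stretches reached that ratio, and the median was 1.04.

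**Figure D4:**
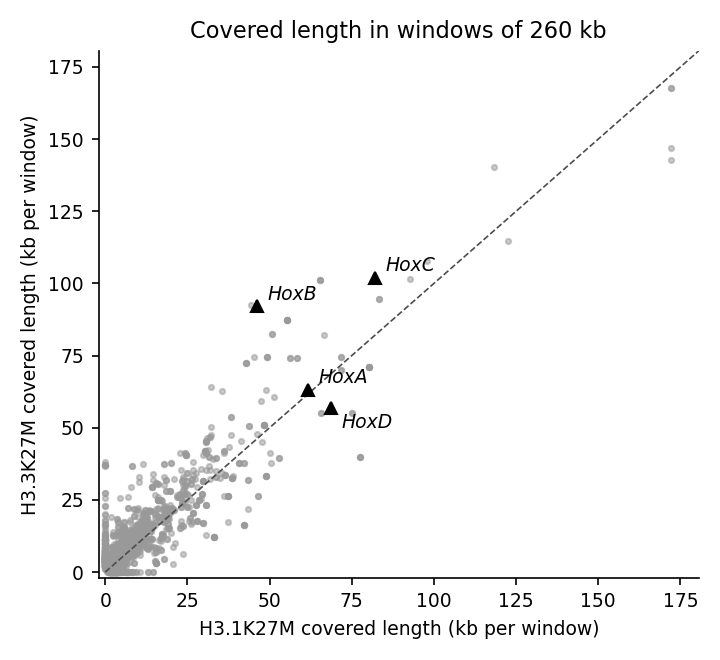
Covered length per stretch of 260 kb in H3.3K27M cells (y axis, kb) and H3.1K27M cells (x axis, kb) for stretches centred on regions outside the Hox clusters (grey points) and for the 4 Hox clusters (triangles). The dashed line marks equal length; HoxB lies at 92.2 kb in H3.3K27M cells and 46.2 kb in H3.1K27M cells.

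The other 3 Hox clusters, the loci most like HoxB, did not have a domain in a single list. Their stretches of 260 kb were placed on mm9 from general knowledge of where the clusters lie and from earlier results of these data. The placing was therefore not independent of the peaks, and no annotation was used for it. At HoxA there were 2 peaks in each list, with 63.2 kb in H3.3K27M cells and 61.8 kb in H3.1K27M cells, a ratio of 1.02. At HoxC, 1 peak of 102.4 kb in H3.3K27M cells contained 1 peak of 82.2 kb in H3.1K27M cells, a ratio of 1.25. At HoxD the H3.1K27M peak was the wider, with 57 kb in H3.3K27M cells and 68.8 kb in H3.1K27M cells, a ratio of 0.828. The HoxB ratio of 2.0 was the highest of the 4, and within shared regions alone the HoxB ratio of 1.16 lay between those of HoxA and HoxC. The H3.1K27M length at HoxB was the smallest of the 4, and its H3.3K27M length was exceeded by that of HoxC. No replicate lists were at hand to test the differences between clusters.

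**Figure D5:**
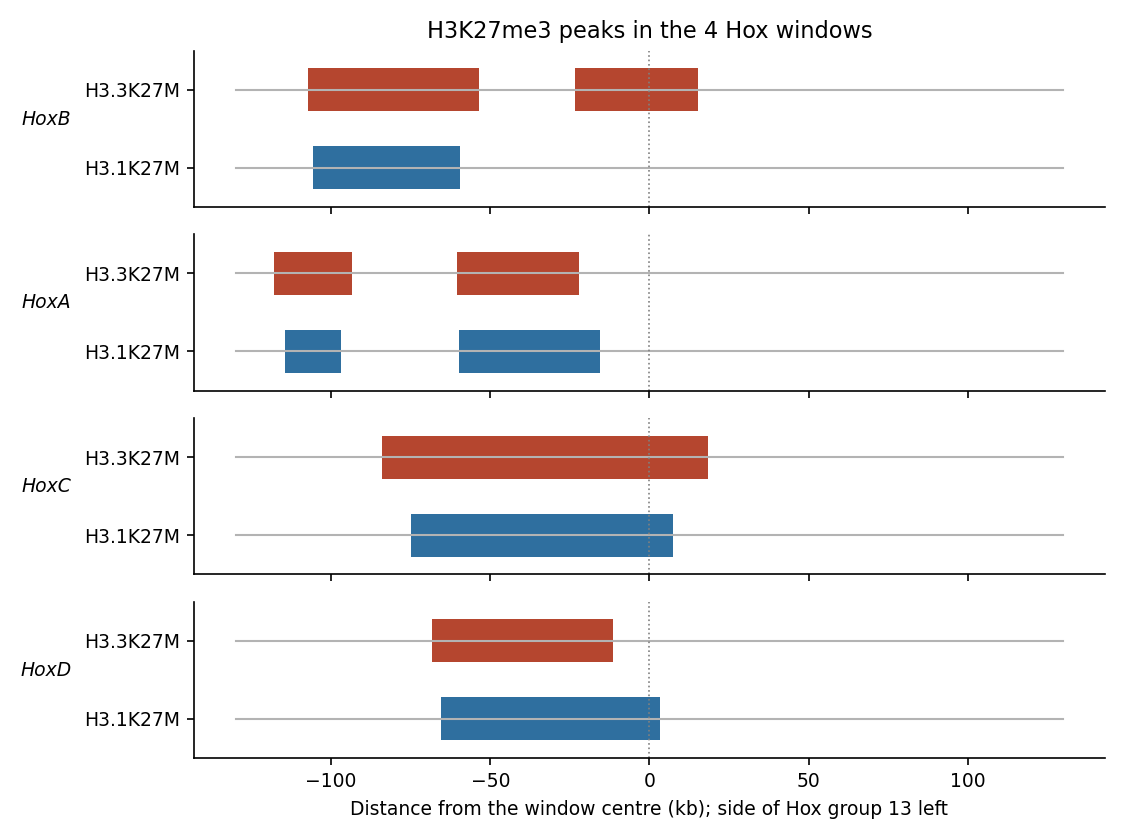
H3K27me3 peaks in H3.3K27M cells (upper bars, red) and H3.1K27M cells (lower bars, blue) at HoxB, HoxA, HoxC and HoxD. The x axis gives the distance in kb from the centre of each stretch with Hox group 13 to the left, HoxA being turned round; a bar without a counterpart in the other list occurs at HoxB only.

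In all 4 clusters the peaks lay mostly between the centre of the stretch and its end on the side of Hox group 13, the posterior genes. This gives a side of the stretch only, since no peak could be assigned to a gene and a peak may lie beyond the Hox row. The centres at HoxA, HoxC and HoxD were set partly from earlier results of these data, so the shares there are not independent of that placing. At HoxB this side held 83.5% of the H3.3K27M length (77 kb, with 15.2 kb on the other side) and 100% of the H3.1K27M length. At HoxA it held 100% in both lists. At HoxC it held 82% in H3.3K27M cells and 91% in H3.1K27M cells, and at HoxD 100% in H3.3K27M cells and 95.4% in H3.1K27M cells. Which end carries group 13 was read from the gene order in RefSeq. The share depends on where the centre is set: with the centre moved by 20 kb either way, the lowest share was 61.8% at HoxB, in H3.3K27M cells, 92.9% at HoxA, 62.5% at HoxC and 66.3% at HoxD. The part of the second HoxB domain beyond the centre was the only HoxB length called on the Hoxb1 side of the centre.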

How the data were processed

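Chromatin immunoprecipitation and sequencing of H3K27me3 was analysed from 2 deposited peak lists, 1 for each K27M mutant. The submitters' processing notes name Bowtie 1.0.0, deepTools and the mouse build mm9. No source used here names the peak caller or its threshold, says whether an input was subtracted, or says whether the 2 replicates were pooled. The lists the authors deposited give a chromosome, start, end, width in bp and running name per peak, with no height, score or p-value, so the depth behind a peak is unknown. Starts lie on a grid of 200 bp. Printed positions count the first base as 1. Widths are as deposited.

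Peaks overlapping the HoxB stretch were taken whole. Peaks of both lists that overlapped by at least 1 bp formed a region. Covered length is the sum of widths. No test was run between mutants. The shares of all regions that were shared or in the H3.3K27M list alone, and the share with the wider H3.3K27M peak, carry exact 95% intervals; other shares describe where HoxB ranks and carry none. Members, comparison stretches and named genes (the 10 Hoxb genes, Mir10a, Mir196a-1 and the outer neighbours) were chosen with earlier results of these data known. Alternatives covered the stretch, the overlap rule, merging of peaks under 5 kb apart, edge steps, scaling and the CG threshold. The procedure was tested on simulated data. Observed to expected CG is the number of CG times the length over the product of the numbers of C and G. Sequences are from RefSeq (GRCm38.p6). Python 3.11.15, numpy 2.4.6, pandas 2.3.3, scipy 1.17.1 and matplotlib 3.10.9 were used.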

Additional observations from a re-analysis of the deposited data

How the results depend on the processing

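No paired analysis was possible because each mutant has a single peak list for its 2 replicates, which also means that leaving out a replicate could not be tried. The number of HoxB peaks and the split into 1 shared region and 1 region of the H3.3K27M list alone did not change under any alternative tried. These alternatives could not have changed them. The 2 H3.3K27M peaks lie 30.2 kb apart, against a merging limit of 5 kb. The nearest regions outside end at chr11:95786199 and begin at chr11:96873001, both beyond the stretch widened by 50 kb. No HoxB peak crosses an edge of the stretch. The H3.1K27M peak of 46.2 kb lies wholly inside the H3.3K27M peak of 53.6 kb. At HoxB the covered length in H3.3K27M cells over that in H3.1K27M cells, 2.0, went to 1.47 when divided by the ratio of all covered length, and to 1.16 with regions of both lists only. It lay between 1.96 and 2.03 with all edges moved by 1 grid step. With a reciprocal overlap of 50% required, the HoxB domain ranked 4 by width among the regions of the H3.3K27M list alone, because that rule also counts some overlapping broad peaks as unshared. In all, 44 of 47 alternative values stayed within 1.5 times the value reported, or, for ratios of length, within the range of the edge step. The 3 that did not were the ratios of 1.47 and 1.16 and the rank of 4. This count does not measure robustness, because merging, clipping and widening left every value as it was. The ratio within shared regions and the moved centre were added after seeing the data. At a CG threshold of 0.75 in place of 0.6, 1 of the 3 Hoxb promoters was at or above it, as at 0.6, while 25% of all promoters reached 0.75 and 35.8% reached 0.6. The unknown depth and threshold of each library limit every statement about a peak missing from a list.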

Other observations

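The 2 HoxB peaks of the H3.3K27M list lay 30.2 kb apart. Both were taken because they overlap the same stretch of 260 kb, so a space below the median of the list was set by that choice. HoxA also held 2 H3.3K27M peaks, at -118 to -93.4 kb and -60.6 to -22 kb from the centre of its stretch. Of 1172 spaces between neighbouring H3.3K27M peaks on the same chromosome, 119 (10.2%) were as short or shorter, and the median was 693 kb. In the H3.1K27M list 127 of 1033 (12.3%) were 30.2 kb or less, with a median of 668 kb. To the next H3.3K27M peak beyond the second HoxB domain, past the Hoxb1 end, the distance was 728 kb, and before the shared domain it was 237 kb. For the H3.1K27M peak of HoxB these distances were 806 kb and 244 kb.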
